A study of Homo sapiens with 24 samples.

Results

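The comparison described here set PC3 cells transfected with siRNA labelled siCARLo-1 v2&4 against PC3 cells transfected with control siRNA (siCTRL). It was chosen by cell line and siRNA label, which gave 6 of the 24 libraries of the series, 3 per group, and all 189 endogenous genes of the nCounter Virtual Cell Cycle Gene Set were considered. PC3 is a prostate cancer cell line. In both groups the siRNA was given at a final concentration of 100 nM with Lipofectamine RNAiMAX, and total RNA was taken with TRIZOL; no time between transfection and extraction is stated in the labels. The other siCARLo-1 experiment of the series, used for 1 comparison below, was HCT116, a colorectal cancer line, transfected at 50 nM with siCARLo-1 v3 or siCTRL, 3 libraries each. The nCounter assay counts single molecules of each transcript with fluorescent barcode probes and without amplification. The panel has no probe for the RNA that the siRNAs target, so the knockdown itself could not be checked. Whether the 3 libraries of a group came from separate cultures is unstated, and p-values then describe only how far these libraries spread, which may be technical.

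The cell cycle is driven by cyclins that switch on cyclin-dependent kinases (CDKs) in turn: cyclins D and E with their kinases in G1, cyclin A in S phase, and cyclins A and B with CDK1 at entry into mitosis. RB1, RBL1 and RBL2, the pocket proteins, hold E2F factors in check until G1 kinases phosphorylate them, and E2F factors then switch on genes of DNA replication. CDK inhibitors such as p21, the product of CDKN1A, act as brakes. Many genes of G2 and mitosis carry CCAAT boxes and a CHR element (cell cycle genes homology region) close to their start, and many genes of S phase carry E2F sites.

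The libraries labelled siCARLo-1 v2&4 looked like PC3 and unlike HCT116. CCND2, which encodes cyclin D2, lay at 496 to 571 per 100000 endogenous values in siCARLo-1 v2&4 and at 553 to 583 in PC3 siCTRL, and at most 2.39 in any HCT116 library of siCARLo-1 v3 or siCTRL. TGFB2, a ligand gene of the TGF-beta pathway, lay at 2406 to 2576 in siCARLo-1 v2&4 and 1495 to 1851 in PC3 siCTRL, against 9.98 to 15.5 in HCT116 siCARLo-1 v3 and 8.76 to 11.5 in HCT116 siCTRL. Of the epithelial markers listed, CDH1 was on the panel, and it was detected in all 6 PC3 libraries; markers of other cell types had no probe, so these could not be looked for. The siCARLo-1 v2&4 values were deposited already scaled to the positive control probes, with an endogenous sum of 73568 to 82152 per library, against raw counts of 216562 to 236508 per siCTRL library. Endogenous signal per unit of positive control signal was 5.96 ± 0.329 in siCARLo-1 v2&4 and 10.4 ± 0.939 in siCTRL (SD, n = 3 each; exact permutation test, two-sided, p = 0.1, the smallest that 3 against 3 allows). The labels do not state how much RNA was loaded, and its part in this difference was not tested. The ratio of positive controls A and B was 1.97 ± 0.0737 in siCARLo-1 v2&4 and 2.35 ± 0.0343 in siCTRL (SD, n = 3 each; exact permutation p = 0.1), a log2 difference of -0.26. Of the genes called below, 13 changed by less than this.

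Values were therefore brought to a common scale by TMM over the endogenous genes, so that a rise or fall is relative to the bulk of this panel, and they are called normalised values from here on. Genes above background (2 SD over the mean of that library's negative probes) in at least 3 of the 6 libraries were tested with limma on log2(normalised value + 1), which left 179 of 189 genes. Among the 10 others were ATM, CCNB3, CDC14C, CDKN2C, CREB3L3, GADD45G, PRB1, RPA3 and WEE1. At a limma adjusted p under 0.05, 136 of 179 genes (76%) were called, 72 higher (40.2%) and 64 lower (35.8%) in siCARLo-1 v2&4, and 43 were not called. Of the genes called lower, 1 was above background in no siCARLo-1 v2&4 library and passed the filter through siCTRL alone. Of these, 17 rose and 36 fell by at least 2-fold. The 2 groups did not overlap for 143 genes (79.9%), with siCARLo-1 v2&4 above siCTRL in 75 (41.9%) and below it in 68 (38%). With so many genes called on so small a panel, a count within a gene group has to be read against those shares, and against a median log2 fold change of 0.08 over all genes tested. The balance of rises and falls followed the scale. Scaling to the positive controls shifted fold changes by a median of -0.86 on the log2 scale and called 142 genes (79.3%), 11 higher (6.15%) and 131 lower (73.2%); scaling to 6 reference genes shifted them by a median of 0.25 and called 135 (75.4%), 92 higher (51.4%) and 43 lower (24%). A rise under about 1.82-fold thus turned into a fall with the positive controls. Called in the same direction under all 3 scalings were 11 genes higher and 43 genes lower.

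**Figure D1:**
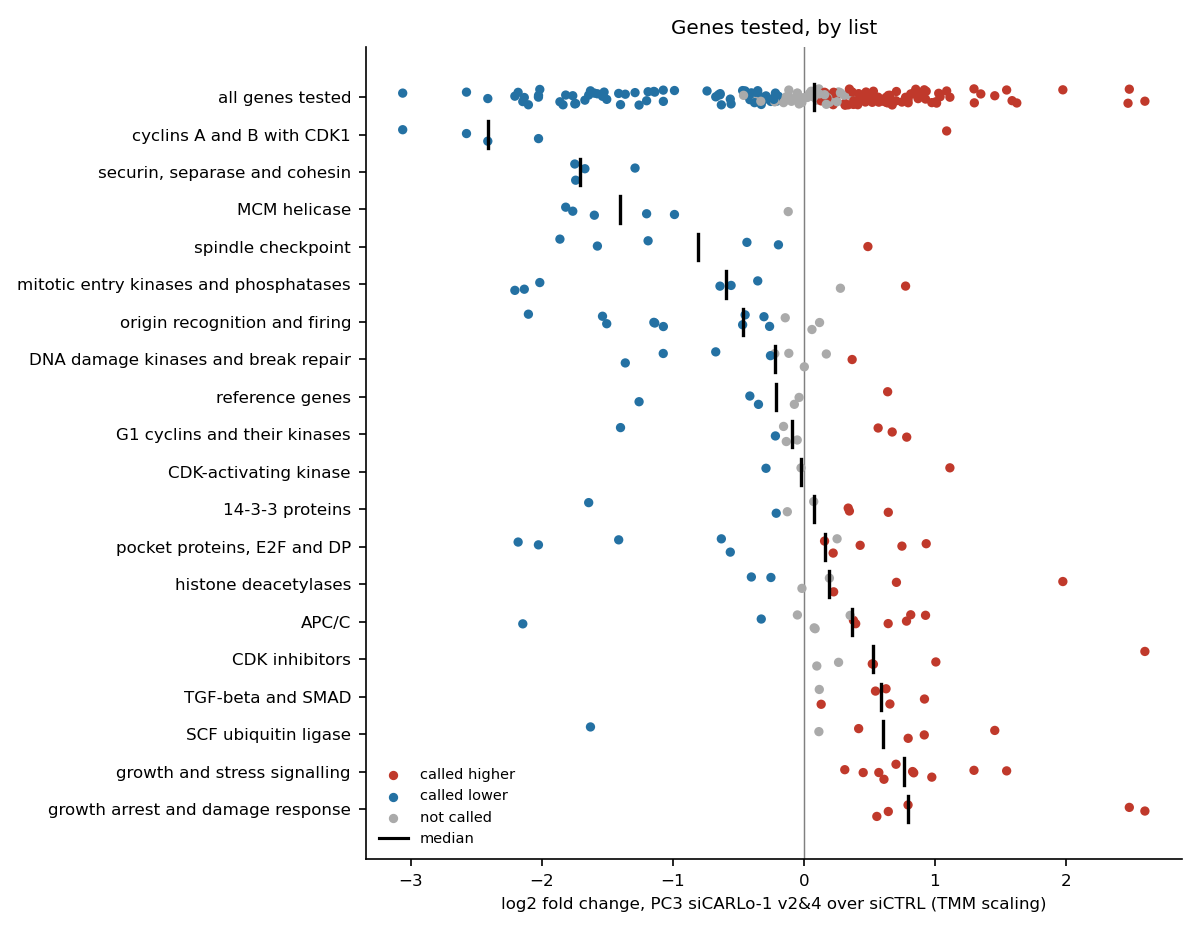
Log2 fold change of PC3 siCARLo-1 v2&4 over siCTRL with TMM scaling (horizontal axis) for all 179 genes tested and for each gene list (rows). Points are genes coloured by call and bars are medians; cyclins A and B with CDK1 have the lowest median, -2.41, and genes of growth arrest and damage response the highest, 0.80, while all genes tested have a median of 0.08; with positive control scaling points move by about -0.86.

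Of all gene lists, the mitotic cyclins with their kinase had the lowest median. Of 5 genes tested in the list of cyclins A and B with CDK1, 4 fell and 1 rose, with a median log2 fold change of -2.41, and the 4 fell under all 3 scalings. CCNB2, which encodes cyclin B2, had normalised values of 61.6, 58.9 and 66.9 in siCARLo-1 v2&4, against 495, 522 and 573 in siCTRL. It was 8.36-fold lower, the largest fall of the 179 genes (log2 fold change -3.06 ± 0.08 SE, limma adjusted p = 5.64e-07). CCNB1, which encodes cyclin B1, the partner that takes CDK1 into mitosis, had 351, 296 and 279 in siCARLo-1 v2&4, against 1779, 1822 and 1913 in siCTRL (5.96-fold lower, limma adjusted p = 2.01e-06). CDK1, the kinase of mitotic entry, had 974, 849 and 867 in siCARLo-1 v2&4, against 4907, 4742 and 4670 in siCTRL, and was 5.33-fold lower (limma adjusted p = 8.23e-07). CCNA2, which encodes cyclin A2 of S phase and G2, had 223, 218 and 219 in siCARLo-1 v2&4, against 914, 897 and 888 in siCTRL, and was 4.07-fold lower. In each of these genes the lowest siCTRL library lay several times above the highest siCARLo-1 v2&4 library. CCNA1, the cyclin A gene best known from the germ line, went the other way, with 240, 267 and 248 in siCARLo-1 v2&4, against 130, 102 and 122 in siCTRL (2.13-fold higher, limma adjusted p = 9.01e-05; not called with positive control scaling, log2 fold change 0.23, nor with all 24 libraries fitted, 0.99 and adjusted p = 0.0983). In bulk RNA a smaller share of cells in G2 and mitosis cannot be told apart from less of these transcripts per cell.

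The promoters shown are those of the 2 genes that fell most and the 2 that rose most among genes with an entry in the promoter table, so that the letters near the start can be seen beside the values. GADD45A had no entry. Each sequence is the 250 bases before the RefSeq start on the plus strand of GRCh38.p14, at chr15:59104896-59105145 for CCNB2, chr5:69166900-69167149 for CCNB1, chr6:36678464-36678713 for CDKN1A and chr11:46294909-46295158 for CREB3L1. Capitals mark matches to CCAAT, to the CHR letters TTTGAA or TTTAAA, or to the E2F letters TTTCCCGC or TTTGGCGC, searched on both strands.
CCNB2: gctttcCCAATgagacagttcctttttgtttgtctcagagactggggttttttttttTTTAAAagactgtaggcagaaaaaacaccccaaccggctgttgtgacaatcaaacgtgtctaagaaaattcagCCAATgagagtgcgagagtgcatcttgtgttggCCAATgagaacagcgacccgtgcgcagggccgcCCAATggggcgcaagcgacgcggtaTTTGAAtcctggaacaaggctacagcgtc
CCNB1: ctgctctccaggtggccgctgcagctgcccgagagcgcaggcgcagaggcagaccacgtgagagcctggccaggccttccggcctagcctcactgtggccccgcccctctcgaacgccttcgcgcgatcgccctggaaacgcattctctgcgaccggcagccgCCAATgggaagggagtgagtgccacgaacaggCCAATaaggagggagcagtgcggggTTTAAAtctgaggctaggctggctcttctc
CDKN1A: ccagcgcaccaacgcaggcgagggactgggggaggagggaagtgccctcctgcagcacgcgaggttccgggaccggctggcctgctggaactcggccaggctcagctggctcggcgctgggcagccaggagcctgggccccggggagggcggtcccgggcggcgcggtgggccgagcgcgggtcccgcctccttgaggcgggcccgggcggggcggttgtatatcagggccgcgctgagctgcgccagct
CREB3L1: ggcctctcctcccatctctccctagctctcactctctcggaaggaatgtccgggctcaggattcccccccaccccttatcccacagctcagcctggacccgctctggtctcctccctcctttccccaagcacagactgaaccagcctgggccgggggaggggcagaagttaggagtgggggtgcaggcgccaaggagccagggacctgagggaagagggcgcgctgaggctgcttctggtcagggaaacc
CCNB2 had CCAAT 244, 120, 87 and 54 bases before the start, TTTAAA 193 bases before it and TTTGAA 29 bases before it. CCNB1 had CCAAT 87 and 55 bases before the start and TTTAAA 30 bases before it, so both held a CHR match about 30 bases from the start behind CCAAT matches. The windows of CDKN1A and CREB3L1 held none of these letters. No 2 marked matches overlapped. Over all 35116 promoter windows of the same table, 32% held CCAAT, 21.9% a CHR match and 1.93% an E2F match, and such a match is a description of letters, not a site. Of the 6 promoters found for cyclins A and B with CDK1, 4 held CCAAT and 3 a CHR match. These 6 include CCNB3, which was not tested. Of the 152 promoters found for genes tested, 65 held CCAAT and 22 a CHR match.

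Genes that start and steer mitosis fell with them. Of 8 mitotic entry kinases and phosphatases tested, 6 fell and 1 rose (median log2 fold change -0.60), and 5 fell with 6 reference genes as the scale. Without siCARLo-1 v2&4 replicate 3 another member, the kinase gene NEK1, was called higher (0.49, limma adjusted p = 0.0421); over all 6 libraries it was not called (0.28). PLK1, the polo-like kinase needed for mitotic entry and spindle assembly, had normalised values of 86.6, 113 and 116 in siCARLo-1 v2&4, against 463, 476 and 515 in siCTRL, and was 4.62-fold lower (limma adjusted p = 1e-05). CDC25B and CDC25C encode phosphatases that remove inhibitory phosphates from CDK1. CDC25B had 71.6, 72.8 and 48.8 in siCARLo-1 v2&4, against 256, 278 and 245 in siCTRL, 4.05-fold lower. CDC25C had 19.98, 12.1 and 14.5 in siCARLo-1 v2&4, of which 1 library was above background, against 68.3, 66.3 and 76.3 in siCTRL. PLK1, CDC25B and CDC25C were picked from genes whose groups did not overlap, so their separation is no result. The low end of CDC25C is at the limit of the assay and its 4.39-fold fall is imprecise. CDC14A, a phosphatase of late mitosis, was the member that rose, at 150, 177 and 148 in siCARLo-1 v2&4, against 91.3, 94.6 and 89.2 in siCTRL (1.71-fold; log2 fold change -0.08 with positive control scaling).

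**Figure D2:**
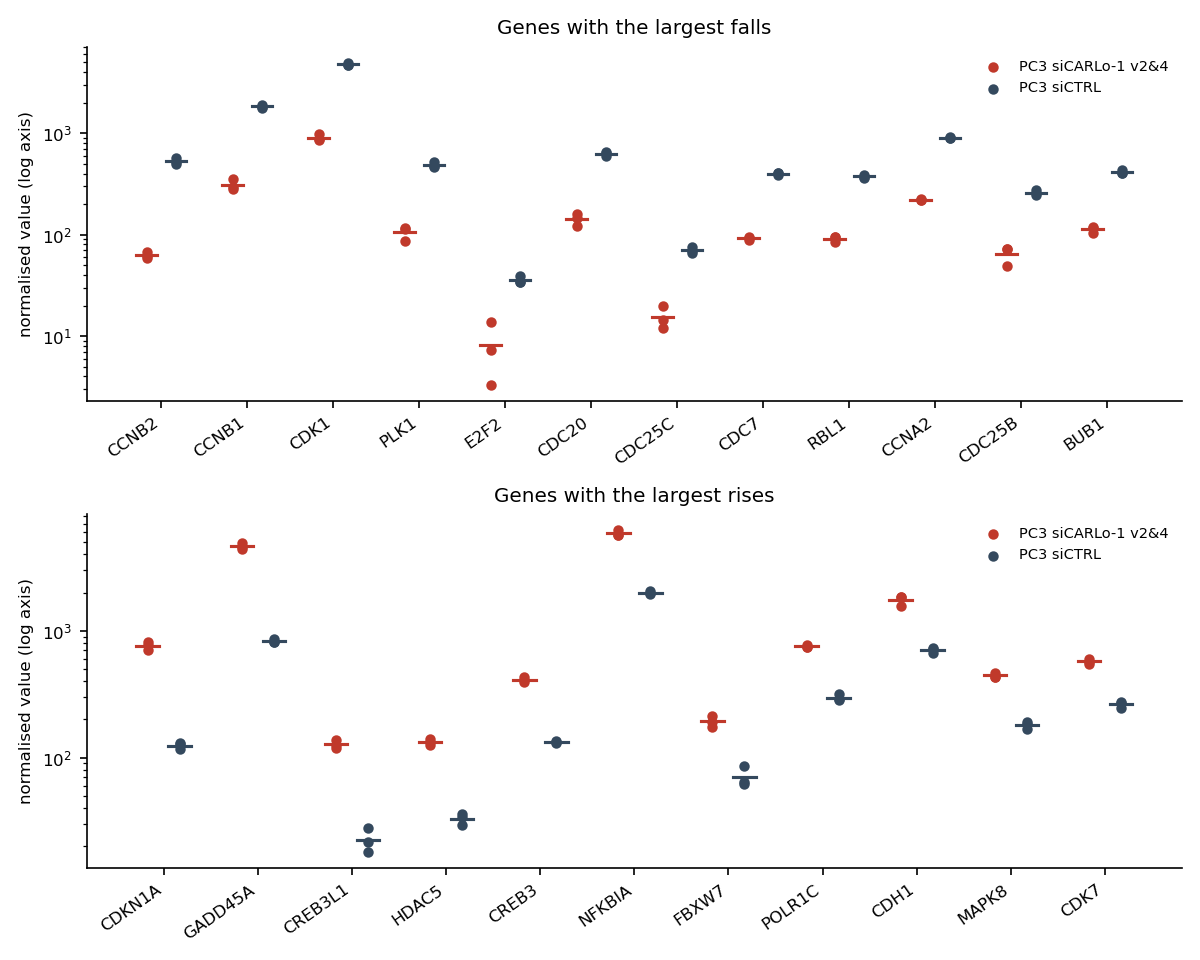
Normalised value per library on a log axis for genes with the largest falls (top) and rises (bottom); each point is a library, PC3 siCARLo-1 v2&4 in red on the left of PC3 siCTRL in dark blue, and each bar is the mean of 3. The genes were picked from those whose 2 groups did not overlap, so their separation here is no result. The points of E2F2 are spread widest.

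The spindle checkpoint and the machinery that parts sister chromatids were lower as well. Of 6 spindle checkpoint genes, 5 fell and 1 rose (median -0.81; 3 fell with 6 reference genes as the scale). BUB1, a checkpoint kinase at kinetochores, had 120, 116 and 105 in siCARLo-1 v2&4, against 438, 405 and 404 in siCTRL (3.64-fold lower, limma adjusted p = 2.09e-06). BUB1B, which encodes BubR1, a part of the mitotic checkpoint complex, had 221, 156 and 208 in siCARLo-1 v2&4, against 578, 593 and 562 in siCTRL (2.98-fold lower). BUB3, their binding partner, was close to even at 1307, 1189 and 1237 in siCARLo-1 v2&4, against 1393, 1459 and 1417 in siCTRL. Its call at log2 fold change -0.19 was lost without siCARLo-1 v2&4 replicate 2, siCTRL replicate 2 or siCTRL replicate 3 (limma adjusted p = 0.0559 to 0.0584), and the sign turned to 0.05 with 6 reference genes as the scale. MAD1L1, which brings MAD2 to kinetochores, had 96.6, 133 and 110 in siCARLo-1 v2&4, against 86.5, 78.8 and 74.6 in siCTRL (log2 fold change 0.49, but -0.37 with positive control scaling). All 4 genes tested of securin, separase and cohesin fell under each of the 3 scalings, with a median of -1.71. PTTG1, which encodes securin, the inhibitor of separase, had 443, 477 and 481 in siCARLo-1 v2&4, against 1622, 1527 and 1565 in siCTRL (3.36-fold lower, limma adjusted p = 1.28e-06). The probe named PTTG2 was 3.19-fold lower, but the 2 transcripts are nearly identical and which of them it counts is uncertain. ESPL1, which encodes separase, the protease that cuts cohesin, had 38.3, 50.3 and 45.2 in siCARLo-1 v2&4, against 143, 148 and 162 in siCTRL (3.35-fold lower). SMC1A, a cohesin subunit, was 2.44-fold lower.

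The anaphase-promoting complex (APC/C), the ubiquitin ligase that marks cyclin B and securin for destruction, did not move as 1 block. Of 12 genes tested, 6 rose, 2 fell and 4 were not called (median 0.37), whereas positive control scaling gave 0 higher and 8 lower. The rises numbered 5 to 7 with a library left out. CDC20, the activator of APC/C in mitosis and itself a mitotic transcript, had 145, 159 and 121 in siCARLo-1 v2&4, against 592, 636 and 656 in siCTRL, and was 4.43-fold lower (limma adjusted p = 6.98e-06). The core subunit CDC16 had 846, 794 and 867 in siCARLo-1 v2&4, against 424, 446 and 444 in siCTRL (1.90-fold higher; log2 fold change 0.06 with positive control scaling, not called). ANAPC5, another core subunit, was 1.76-fold higher, which became a log2 fold change of -0.05 with positive control scaling. ANAPC1, the large scaffold subunit, was 1.25-fold lower (limma adjusted p = 0.0146), a call lost with 6 reference genes as the scale (-0.08). FZR1, the APC/C activator of late mitosis and G1, was chosen after its values were seen because it went opposite to CDC20, at 1.56-fold higher (limma adjusted p = 0.000426; -0.22 on the log2 scale with positive controls). Neither the activators nor the core subunits had 1 direction.

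Genes that license and fire replication origins were lower. Of 6 MCM subunits of the replicative helicase, 5 fell and 1 was not called (median -1.40); the same count held with 6 reference genes, and all 6 were lower with positive control scaling. MCM6 had 145, 147 and 110 in siCARLo-1 v2&4, against 438, 473 and 506 in siCTRL (3.53-fold lower, limma adjusted p = 2.73e-05). MCM3 had 181, 199 and 212 in siCARLo-1 v2&4, against 703, 649 and 665 in siCTRL (3.40-fold lower), and MCM4 was 1.98-fold lower. MCM5 overlapped between the groups, with 122, 120 and 132 in siCARLo-1 v2&4, against 145, 123 and 138 in siCTRL (log2 fold change -0.12, limma adjusted p = 0.211), although it was called at -0.22 without siCTRL replicate 2 (limma adjusted p = 0.0487). Of 4 MCM promoters found, 3 held an E2F match, against 17 of the 152 promoters of genes tested.

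Of 13 other genes of origin recognition and firing, 10 fell, 0 rose and 3 were not called (median -0.47); 6 fell and 2 rose with 6 reference genes as the scale. CDC7, the kinase that fires licensed origins, had 88.2, 95.3 and 92.3 in siCARLo-1 v2&4, against 388, 405 and 402 in siCTRL, and was 4.30-fold lower (limma adjusted p = 5.64e-07). PCNA, the sliding clamp of DNA polymerases, had 96.6, 113 and 119 in siCARLo-1 v2&4, against 313, 285 and 363 in siCTRL (2.90-fold lower). The origin recognition subunits ORC4 and ORC5 had log2 fold changes of 0.06 and 0.12 and were not called (limma adjusted p = 0.386 and 0.114); with positive control scaling both were called lower at -0.80 and -0.74. The fall was thus large in CDC7 and PCNA and not seen in ORC4 and ORC5 on the TMM scale. These are the highest members of the list and do not stand for all ORC genes. Of the others, looked up after the values were seen, ORC1 was called lower under all 3 scalings. ORC3 and ORC6 were called lower with TMM and positive controls but not with 6 reference genes, and ORC2 was not called with TMM.

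E2F and pocket protein genes split by member. Of 11 genes tested, 5 rose, 5 fell and 1 was not called (median 0.16). Without siCARLo-1 v2&4 replicate 3 the rises numbered 4, and 3 when any other library was left out, with median-of-ratios or endogenous sum scaling, or with all 24 libraries fitted; with positive control scaling 0 were higher and 9 lower. Among the activating E2F genes, E2F1 had 115, 128 and 143 in siCARLo-1 v2&4, against 317, 343 and 372 in siCTRL, and was 2.66-fold lower (limma adjusted p = 2.96e-05). E2F2 had 3.33, 13.9 and 7.24 in siCARLo-1 v2&4, of which 1 library was above background, against 38.7, 34.3 and 34.4 in siCTRL (log2 fold change -2.18 ± 0.42 SE, limma adjusted p = 0.0032). E2F3, the other activating member, was chosen after its values were seen because it went the other way, with 181, 192 and 228 in siCARLo-1 v2&4, against 154, 135 and 156 in siCTRL (1.35-fold higher, limma adjusted p = 0.00973; -0.43 on the log2 scale with positive controls). Of the E2F members known as repressors, E2F4 had 441, 395 and 463 in siCARLo-1 v2&4, against 244, 256 and 270 in siCTRL. E2F6 had 328, 288 and 365 in siCARLo-1 v2&4, against 172, 150 and 190 in siCTRL. These rises were 1.68-fold for E2F4 and 1.91-fold for E2F6 with TMM, whereas with positive control scaling neither was called (-0.12 and 0.07). Among the pocket proteins RBL1, which encodes p107, had 94.9, 84.9 and 94.1 in siCARLo-1 v2&4, against 362, 373 and 390 in siCTRL, and was 4.07-fold lower (limma adjusted p = 1.28e-06). RB1, the retinoblastoma protein gene, had 350, 326 and 333 in siCARLo-1 v2&4, against 299, 314 and 290 in siCTRL. Its log2 fold change of 0.16 (limma adjusted p = 0.0428) was not called without any 1 of the 6 libraries (0.10 to 0.18, limma adjusted p = 0.0523 to 0.259) and was -0.71 with positive control scaling.

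CDKN1A rose most. It encodes p21, the CDK inhibitor that halts the cycle after damage, and had 774, 816 and 700 in siCARLo-1 v2&4, against 116, 129 and 128 in siCTRL, 6.08-fold higher (log2 fold change 2.60 ± 0.08 SE, limma adjusted p = 1.04e-06; 1.74 with positive control scaling and 2.85 with 6 reference genes). Of 6 CDK inhibitor genes tested, 4 rose and 2 were not called (median 0.53), and positive control scaling gave 1 higher and 3 lower. CDKN2B, which encodes p15, an inhibitor of CDK4 and CDK6, had 496, 435 and 396 in siCARLo-1 v2&4, against 243, 186 and 231 in siCTRL (2.01-fold higher; 0.14 with positive control scaling, not called). CDKN1B, which encodes p27, had 88.2, 74.5 and 70.6 in siCARLo-1 v2&4, against 56.8, 45.1 and 58.9 in siCTRL (1.45-fold higher, limma adjusted p = 0.00973), but -0.32 on the log2 scale with the positive controls.

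All 5 genes tested of growth arrest and damage response were called higher on the TMM scale (median 0.80), and 2 of them were higher with positive control scaling. Those 2 were CDKN1A and GADD45A. GADD45A, a stress gene whose product binds PCNA and CDK1, had 4453, 4581 and 4966 in siCARLo-1 v2&4, against 813, 868 and 814 in siCTRL, and was 5.60-fold higher (limma adjusted p = 5.64e-07). MDM2, which encodes a ubiquitin ligase, had 336, 338 and 382 in siCARLo-1 v2&4, against 212, 193 and 202 in siCTRL (1.74-fold higher; -0.07 with positive control scaling). SFN, the 14-3-3 sigma gene, and GADD45B were 1.56-fold and 1.47-fold higher, which became -0.22 and -0.30 on the log2 scale with the positive controls. The size of these rises thus ranged widely, with CDKN1A and GADD45A well apart from the other 3.

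**Figure D3:**
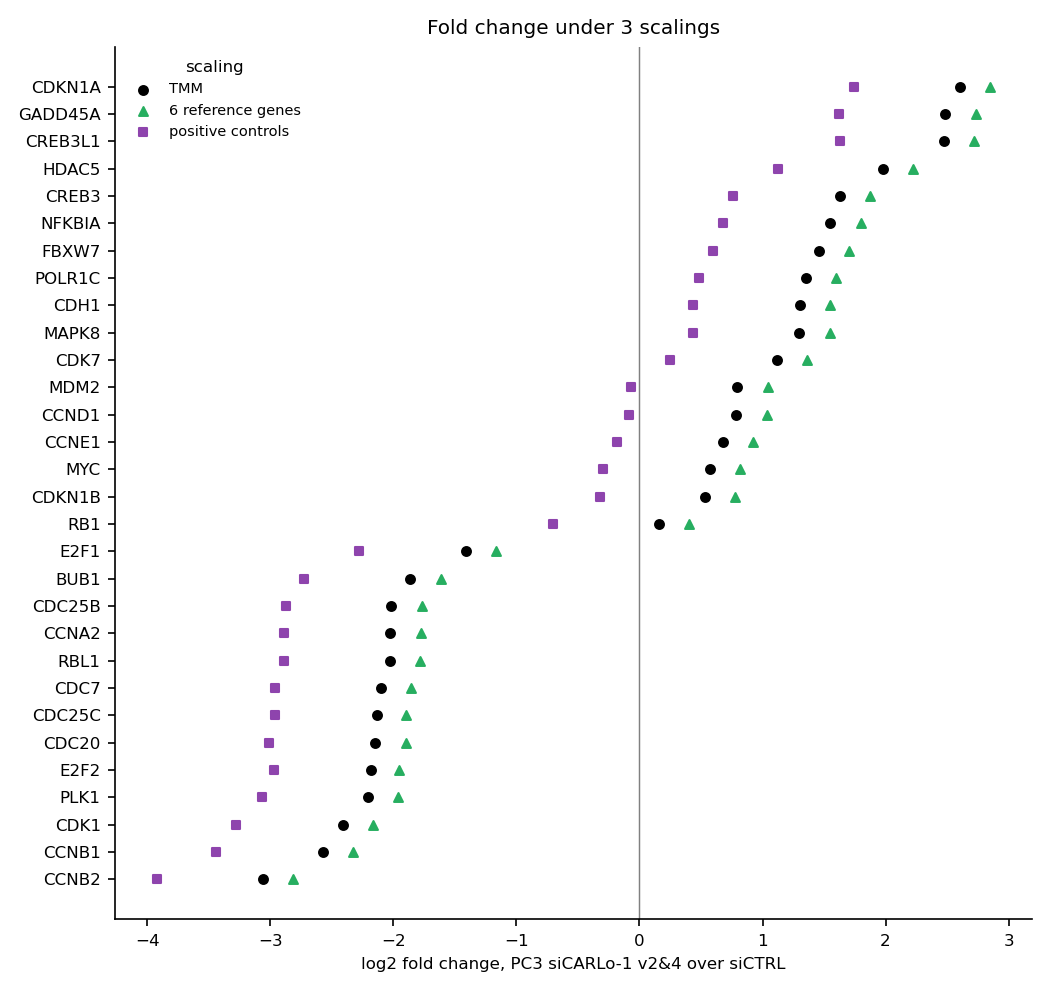
Log2 fold change of PC3 siCARLo-1 v2&4 over siCTRL (horizontal axis) for genes with the largest changes and the fixed cell cycle genes, under TMM (circles), 6 reference genes (triangles) and positive controls (squares). The 12 largest falls lie left of 0 under each scaling. A change of scaling shifts all genes by nearly the same amount, so falls of this size could not cross 0. The largest rises except CDK7 are called higher under each scaling, whereas MDM2, CCND1, CCNE1, MYC, CDKN1B and RB1 cross 0 with the positive controls.

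The G1 cyclins and their kinases showed no common direction: of 8 genes tested, 3 rose, 2 fell and 3 were not called (median -0.09), and positive control scaling gave 0 higher and 5 lower. Without siCARLo-1 v2&4 replicate 1 or 2 or siCTRL replicate 2 the falls numbered 1, and without siCARLo-1 v2&4 replicate 3 they numbered 3. CCND1, which encodes cyclin D1, had 1745, 1854 and 1865 in siCARLo-1 v2&4, against 1034, 1058 and 1075 in siCTRL (1.72-fold higher, limma adjusted p = 2.3e-05; -0.08 on the log2 scale with positive controls). The E cyclins went apart. CCNE1 had 113, 113 and 101 in siCARLo-1 v2&4, against 72.0, 69.6 and 62.4 in siCTRL (1.6-fold higher, but a log2 fold change of -0.18 with positive controls). CCNE2 had 78.2, 98.8 and 81.4 in siCARLo-1 v2&4, against 221, 243 and 220 in siCTRL (2.64-fold lower, limma adjusted p = 3.04e-05). CDK2, their kinase, had a log2 fold change of -0.22 (limma adjusted p = 0.0185) that was not called without siCARLo-1 v2&4 replicate 1 or 2 or siCTRL replicate 2 or 3 (adjusted p = 0.0523 to 0.0647) and was 0.03 with 6 reference genes. MYC, a transcription factor gene of growth, had 1868, 1893 and 1865 in siCARLo-1 v2&4, against 1230, 1354 and 1202 in siCTRL (1.49-fold higher, limma adjusted p = 0.000183; -0.29 with positive controls).

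Of 6 genes of the SCF ubiquitin ligase, which marks p27 and cyclin E for destruction, 4 rose, 1 fell and 1 was not called (median 0.61; 1 higher and 3 lower with positive control scaling). The substrate receptors moved in opposite directions. FBXW7, the receptor for cyclin E and MYC, had 215, 175 and 192 in siCARLo-1 v2&4, against 64.1, 85.4 and 61.8 in siCTRL (2.75-fold higher, limma adjusted p = 0.000115; 0.60 with positive controls, but 0.30 and not called in the series-wide table as deposited). SKP2, the receptor for p27, had 195, 224 and 201 in siCARLo-1 v2&4, against 629, 639 and 650 in siCTRL (3.09-fold lower, limma adjusted p = 2.96e-06; -2.49 with positive controls). CDC34, an E2 enzyme of SCF, was 1.89-fold higher (0.06 with positive controls), and the scaffold CUL1 was not called (0.12, limma adjusted p = 0.108; -0.75 with positive controls). In the CDK-activating kinase the 3 subunits also differed. CDK7, the kinase, had 571, 605 and 548 in siCARLo-1 v2&4, against 271, 276 and 248 in siCTRL (2.17-fold higher; 0.25 and limma adjusted p = 0.0956 with positive controls). Its cyclin CCNH overlapped between the groups (-0.02, limma adjusted p = 0.736; 0.23 with 6 reference genes), and the assembly factor MNAT1 was 1.22-fold lower (limma adjusted p = 0.0195; -0.04 with 6 reference genes, not called).

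All 10 growth and stress signalling genes tested rose (median 0.77), and 2 were higher and 3 lower with positive control scaling. NFKBIA, which encodes the inhibitor of NF-kappa-B and is itself an NF-kappa-B target, had 6223, 5705 and 5679 in siCARLo-1 v2&4, against 2059, 1953 and 1999 in siCTRL (2.93-fold higher, limma adjusted p = 2.09e-06; 0.68 with positive controls). MAPK8, which encodes the stress kinase JNK1, had 435, 435 and 467 in siCARLo-1 v2&4, against 191, 167 and 184 in siCTRL (2.46-fold higher, limma adjusted p = 8.23e-06; 0.44 with positive controls, but 0.14 and not called in the series-wide table as deposited). The smallest rises of the list were those of the kinases ABL1 (0.45) and GSK3B (0.31), which became -0.41 and -0.55 with positive controls. Of 6 TGF-beta and SMAD genes, 5 rose and 1 was not called (median 0.59), against 0 higher and 2 lower with positive controls. SMAD3, a transducer of TGF-beta signals, had 1626, 1506 and 1502 in siCARLo-1 v2&4, against 770, 862 and 814 in siCTRL (1.89-fold higher; 0.05 with positive controls), and SMAD4, the common partner, was 1.58-fold higher (-0.20). SMAD2, at 0.13, was not called without any 1 of the 6 libraries (0.07 to 0.15, limma adjusted p = 0.0627 to 0.334) and was -0.73 with positive controls, and the ligand gene TGFB3 was not called (0.12, limma adjusted p = 0.219; -0.73 with positive controls).

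CREB3L1, CREB3, CDH1 and POLR1C, outside these pathways, were among the largest rises, all called higher under the 3 scalings, although CDH1 (0.14, limma adjusted p = 0.325) and POLR1C (0.19, adjusted p = 0.169) were not called in the series-wide table as deposited. CREB3L1 and CREB3 encode membrane-bound transcription factors that are cut to release their active part. CREB3L1 had 138, 126 and 119 in siCARLo-1 v2&4, against 18.1, 27.7 and 21.6 in siCTRL (5.56-fold higher, limma adjusted p = 1.59e-05). CREB3 had 435, 411 and 393 in siCARLo-1 v2&4, against 134, 134 and 130 in siCTRL (3.09-fold higher). CDH1, which encodes E-cadherin of epithelial junctions, had 1863, 1844 and 1563 in siCARLo-1 v2&4, against 738, 674 and 717 in siCTRL (2.47-fold higher, limma adjusted p = 2.14e-05). POLR1C, a subunit shared by RNA polymerases I and III, was 2.55-fold higher. 

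Histone deacetylase genes had 3 rises and 2 falls among 7 tested (median 0.20, against 1 higher and 5 lower with positive controls). The rises numbered 2 or 3 with a library left out, and 2 with median-of-ratios or endogenous sum scaling or with all 24 libraries fitted. HDAC5, a class II deacetylase, had 127, 132 and 141 in siCARLo-1 v2&4, against 29.6, 35.9 and 33.8 in siCTRL (3.94-fold higher, limma adjusted p = 3.44e-06; 1.13 with positive controls). HDAC8 was 1.63-fold higher (-0.15 on the log2 scale with positive controls), while HDAC1 was 1.32-fold and HDAC2 1.19-fold lower, calls lost with 6 reference genes as the scale (-0.15 and -0.003 on the log2 scale). Among 9 DNA damage kinase and break repair genes 4 fell and 1 rose (median -0.22; 0 higher and 9 lower with positive controls). BRCA1, a repair gene known to be transcribed in S phase, had 66.6, 57.2 and 59.7 in siCARLo-1 v2&4, against 149, 160 and 167 in siCTRL (2.57-fold lower, limma adjusted p = 1.27e-05). CHEK2, a checkpoint kinase gene, was 2.10-fold lower. CHEK1, the checkpoint kinase gene of the replication stress response, was 1.29-fold higher (limma adjusted p = 0.000463; -0.50 on the log2 scale with positive controls; not called with all 24 libraries fitted, 0.27 and adjusted p = 0.273). Of 7 genes for 14-3-3 proteins, adaptors that bind phosphorylated partners, 3 rose and 2 fell (median 0.08; 0 higher and 6 lower with positive controls). YWHAB had 107, 88.4 and 95.9 in siCARLo-1 v2&4, against 303, 297 and 312 in siCTRL (3.12-fold lower), whereas YWHAH was 1.27-fold higher (-0.52 on the log2 scale with positive controls). YWHAE, at -0.21, was not called without siCTRL replicate 2 or 3 (limma adjusted p = 0.0505 and 0.0543), which left 1 fall in the list, and was 0.04 with 6 reference genes.

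The reference genes were not level among themselves. On the TMM scale CLTC was 1.56-fold higher, GUSB 1.33-fold, HPRT1 1.27-fold and TUBB 2.39-fold lower, while GAPDH and PGK1 were not called (log2 fold changes -0.04 and -0.07, limma adjusted p = 0.641 and 0.393). TUBB, a beta-tubulin gene, had 1603, 1608 and 1672 in siCARLo-1 v2&4, against 4048, 3863 and 3776 in siCTRL. With positive control scaling CLTC was -0.23 (limma adjusted p = 0.103) and the 5 others were lower, and with the reference genes as the scale GAPDH was called higher at 0.21. A span of this size within the set limits how far it can fix a scale.

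The effect of siCARLo-1 v2&4 in PC3 was set against that of siCARLo-1 v3 in HCT116 by an interaction contrast over 12 libraries and 180 genes. Cell line, variant label and siRNA dose all differ between these experiments and cannot be told apart. The positive controls of the series-wide table sum to 8964 to 8967 in HCT116 siCTRL and to 12211 or 12212 in HCT116 siCARLo-1 v3. They sum to 16033 in PC3 siCTRL and 13061 in PC3 siCARLo-1 v2&4. Were these sums to mark runs of the instrument, run could not be told apart either. The effects differed in 92 genes (51.1%), with the PC3 effect higher in 39 (21.7%) and lower in 53 (29.4%). With positive control scaling it was higher in 8 and lower in 95, and with 6 reference genes higher in 39 and lower in 28. Among the named genes with the largest PC3 changes and the fixed cell cycle genes, 30 in all, 27 differed. Most of the 30 were picked for large PC3 changes, which by itself favours a difference of the same sign. Their count is therefore not to be read against the share over all genes. Among the 30, the mitotic genes that differed had lower log2 fold changes in PC3 than in HCT116. Mitotic genes named above but outside the 30 also went the other way. CDC14A had 0.78 in PC3 and -0.06 in HCT116 (difference 0.84, limma adjusted p = 0.00362). The APC/C subunits CDC16 (difference 0.76) and ANAPC5 (difference 0.74) were called higher in PC3 as well. CCNB2 had a log2 fold change of -3.06 in PC3 and -0.71 in HCT116, a difference of -2.35 ± 0.16 SE (limma adjusted p = 2.53e-06). CDK1 had -2.41 in PC3 and -0.41 in HCT116 (difference -2.00), and CCNA2 had -2.03 in PC3 and -1.16 in HCT116 (difference -0.86, limma adjusted p = 0.00535; -0.64 and not called with 6 reference genes). E2F1 had -1.41 in PC3 and 0.32 in HCT116 (difference -1.73, limma adjusted p = 3.38e-05). The HCT116 change of E2F1 was not tested by itself. For CDKN1A, the log2 fold changes were 2.60 in PC3 and 2.45 in HCT116, and the difference of 0.16 was not called (95% interval -0.21 to 0.52, limma adjusted p = 0.476). GADD45A had 2.49 in PC3 and 0.62 in HCT116 (difference 1.86 ± 0.15 SE, limma adjusted p = 2.8e-06). CCNE1, with a difference of 0.05 (95% interval -0.28 to 0.38), and MDM2, with 0.25 (-0.03 to 0.53), were not called either.

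**Figure D4:**
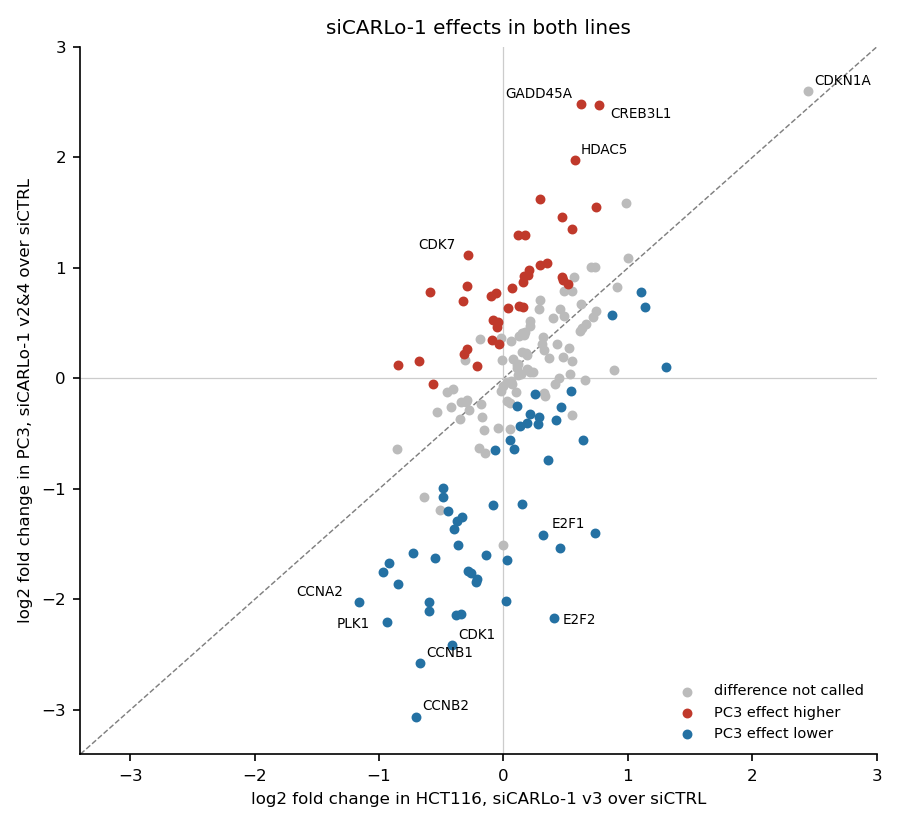
Log2 fold change of siCARLo-1 v2&4 over siCTRL in PC3 (vertical axis) against siCARLo-1 v3 over siCTRL in HCT116 (horizontal axis) for 180 genes, coloured by whether the 2 effects were called different; the dashed line marks equal effects. CDKN1A, at 2.60 and 2.45, lies next to that line, while CCNB2, at -3.06 and -0.71, and GADD45A, at 2.49 and 0.62, lie far from it.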

How the data were processed

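Transcripts were counted with the nCounter Virtual Cell Cycle Gene Set in 3 PC3 libraries of siCARLo-1 v2&4 and 3 of siCTRL; 6 positive and 8 negative probes served as controls. The siCTRL table as deposited holds raw molecule counts per probe. The siCARLo-1 v2&4 table as deposited holds a score, namely counts already scaled to the positive controls, since those sum to 13061 in each library; it was not turned back into counts. The series-wide table, used as an alternative, holds a score the authors scaled in the same way. There the positive controls sum to 13061 in siCARLo-1 v2&4 and 16033 in siCTRL. As deposited, its fold changes are therefore lower than with equal positive control sums, by a fixed factor. Were these sums to mark runs of the instrument, run and group could not be told apart. How images became counts is not stated in the labels or headers.

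Because 1 group is not raw counts, no count model was used. Values were scaled with TMM (edgeR 4.0.16, factors 0.966 to 1.03), 1 was added, and log2 values were fitted with limma 3.58.1 in R 4.3.3, with Benjamini-Hochberg adjustment over all genes tested. The siCARLo-1 v2&4 libraries had 168 to 176 genes above background (7.03 to 12.2) and the siCTRL libraries 178 to 184 (10.8 to 15.7). Within the siCTRL group no 2 libraries agreed within counting noise; the siCARLo-1 v2&4 values are scaled, so this could not be tested for them, but no 2 of these libraries held the same values. The positive and reference probes, the pseudocount, filters, background, source table, variance model, samples fitted and each library left out were varied. Of 189 probe accessions 178 matched RefSeq, which gave the promoters. The fit was also run on simulated data. These were unscaled counts in which as many genes rose as fell, so the choice of scale was not tested by them. Genes were named by a rule: the 12 largest rises and 12 largest falls among called genes whose groups did not overlap, 12 fixed cell cycle genes, up to 2 highest and 2 lowest members per list, and the 6 reference genes. The genes, lists and tests were chosen with earlier results of these data known. Some genes are not reported here.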

Additional observations from a re-analysis of the deposited data

Results flagged for a closer look

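Of the 30 genes with the largest PC3 changes or fixed by name that are described, 27 had an effect of siCARLo-1 v2&4 in PC3 that differed from that of siCARLo-1 v3 in HCT116 by the interaction test (limma, adjusted over 180 genes; 51.1% of all genes differed). Most of the 30 were picked for large PC3 changes, which by itself favours a difference of the same sign. Neither their count nor their signs can thus be read against the share over all genes. The log2 differences given here are PC3 minus HCT116. Among genes of mitosis they were CCNB2 -2.35, CDC25B -2.04, CDK1 -2.00, CCNB1 -1.91, CDC25C -1.78, CDC20 -1.77, PLK1 -1.27, BUB1 -1.01 and CCNA2 -0.863, all below 0. Among genes of the G1/S step and of replication they were E2F2 -2.58, E2F1 -1.73, CDC7 -1.50, RBL1 -1.43, CCND1 -0.321 and MYC -0.299, with RB1 at 0.838 and CDKN1B at 0.619. E2F2 and CDC25C lay near background in PC3 siCARLo-1 v2&4, with means of 7.49 and 14.3. The difference of E2F2 has an SE of 0.57. CCND1 had log2 fold changes of 0.79 in PC3 and 1.11 in HCT116, MYC 0.57 in PC3 and 0.87 in HCT116, whereas RB1 had log2 fold changes of 0.16 in PC3 and -0.68 in HCT116.

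Among genes that rose most in PC3 the differences were GADD45A 1.86, CREB3L1 1.70, CDK7 1.40, HDAC5 1.40, CREB3 1.33, MAPK8 1.18, CDH1 1.13, FBXW7 0.988, NFKBIA 0.805 and POLR1C 0.804. CREB3L1 had means of 6.28 and 3.24 in HCT116 siCARLo-1 v3 and siCTRL, so its HCT116 effect of 0.77 rests on values near background. With positive control scaling the differences of RB1 (0.26), NFKBIA (0.22), POLR1C (0.22), FBXW7 (0.41), CDH1 (0.54) and CDKN1B (0.05) were not called. With 6 reference genes those of CCNA2 (-0.64), CCND1 (-0.10) and MYC (-0.08) were not called. The difference of MYC was not called without PC3 siCARLo-1 v2&4 replicate 1, 2 or 3, PC3 siCTRL replicate 2, HCT116 siCARLo-1 v3 replicate 3 or HCT116 siCTRL replicate 1 or 3 (limma adjusted p = 0.0558 to 0.11), and that of CDKN1B was not called without PC3 siCARLo-1 v2&4 replicate 1, PC3 siCTRL replicate 2 or HCT116 siCTRL replicate 1 (0.0528 to 0.0582). Line, variant label and dose, and run were positive control sums to mark it, cannot be told apart in any of these differences.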

How the results depend on the processing

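The number of PC3 genes called ranged over 123 to 136 when each library was left out (64 to 71 higher, 58 to 65 lower), and over 85 to 111 for the difference between lines (34 to 52 higher, 51 to 59 lower). Scaling decided the direction of modest changes. With positive control scaling 11 PC3 genes were higher and 131 lower, and in the series-wide table as deposited 6 were higher and 157 lower. The difference between lines was then 8 higher and 95 lower with positive controls, and 39 higher and 28 lower with 6 reference genes. Signs turned with 6 reference genes for BUB3 (0.0542), CCNH (0.23), CDK2 (0.0300), GAPDH (0.21) and YWHAE (0.0374). With positive control scaling signs turned for ABL1 (-0.41), ANAPC5 (-0.0501), CCND1 (-0.0813), CCNE1 (-0.18), CDC14A (-0.0833), CDKN1B (-0.32), CDKN2A (-0.76), CDKN2D (-0.60), CHEK1 (-0.50), CLTC (-0.23), CUL1 (-0.75), E2F4 (-0.12), GADD45B (-0.30), GSK3B (-0.55), HDAC8 (-0.15), MAD1L1 (-0.37), MDM2 (-0.0684), MYC (-0.29), NEK1 (-0.57), ORC4 (-0.80), ORC5 (-0.74), RB1 (-0.71), SFN (-0.22), SMAD2 (-0.73), SMAD4 (-0.20), TGFB3 (-0.73) and YWHAH (-0.52). In the series-wide table as deposited these 27 turned too, at ABL1 -0.71, ANAPC5 -0.35, CCND1 -0.38, CCNE1 -0.47, CDC14A -0.38, CDKN1B -0.61, CDKN2A -1.04, CDKN2D -0.89, CHEK1 -0.79, CLTC -0.52, CUL1 -1.05, E2F4 -0.41, GADD45B -0.59, GSK3B -0.85, HDAC8 -0.45, MAD1L1 -0.66, MDM2 -0.36, MYC -0.59, NEK1 -0.86, ORC4 -1.10, ORC5 -1.04, RB1 -1.00, SFN -0.52, SMAD2 -1.02, SMAD4 -0.50, TGFB3 -1.01 and YWHAH -0.81, as did CCNA1 (-0.0676), CDC16 (-0.23), CDC34 (-0.24), CDK7 (-0.0439), CDKN2B (-0.15), E2F6 (-0.22) and SMAD3 (-0.24). By construction, such scaling moves all genes by nearly the same amount. The series-wide table moves them further down, since its positive controls sum to 13061 in siCARLo-1 v2&4 and 16033 in siCTRL. Its counts, sign turns and lost calls partly reflect these unequal sums and are no separate check on positive control scaling.

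With the replicate number as a block 133 PC3 genes were called (70 higher, 63 lower). Same-numbered libraries correlated at -0.12, 0.10 and 0.10 in their deviations, so the numbers were not taken to pair libraries. The difference in endogenous signal per positive control signal was -4.49 (-4.99 to -4.06 with a library left out; -4.51 with positive controls A to D only). Other settings kept the total PC3 counts within 1.5 times and turned the sign of no named gene called in either setting. Among the gene lists, rises of mitotic entry genes numbered 3 with no filter against 1, and the single rises among cyclins A and B with CDK1 (CCNA1) and among DNA damage genes (CHEK1) numbered 0 with all 24 libraries fitted. In the series-wide table as deposited FBXW7 (0.30), POLR1C (0.19), CDH1 (0.14) and MAPK8 (0.14) were not called. Levels near background limit E2F2 and CDC25C.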

Other observations

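The genes in this paragraph stand outside the naming rule and were chosen after their values were seen. Subunits of the DNA polymerase alpha and primase complex, which starts new DNA strands, fell to different degrees: PRIM1 had a log2 fold change of -1.84 and POLA2 of -0.65, while PRIM2 at -0.36 was not called. The single-strand binding subunits RPA1 (0.03) and RPA2 (0.06) were not called on the TMM scale. The acetyltransferase coactivator genes EP300 (1.04) and CREBBP (1.03) were both called higher, as was POLR1B (0.89), a subunit of RNA polymerase I; with positive control scaling these were 0.18, 0.18 and 0.03. SHH, a hedgehog ligand gene, was called lower at -0.64. TP73 was above background in no siCARLo-1 v2&4 library, so no call is given for it.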
